A study of Mus musculus with 12 samples.

Results

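Ribosome biogenesis and RNA polymerase I (Pol I) genes were examined as a set of 47 genes, chosen by symbol and matched by Ensembl identifier, out of 56748 genes counted. The set holds Pol I subunits and initiation factors, the core proteins of the small nucleolar ribonucleoproteins (snoRNPs), and assembly factors of the small and large ribosomal subunits. Bulk RNA-seq counts came from 12 libraries of donor-derived (CD45.2+) Lin-Sca+Kit+ (LSK) bone marrow (BM) cells, the fraction rich in haemopoietic stem and multipotent progenitor cells. The donor BM was a frozen pool from SCLtTA/BCR-ABL double transgenic (DTG) mice of both sexes, in which an Scl enhancer drives the tetracycline transactivator, so that human BCR::ABL1 is silent with tetracycline (TET) and is switched on when it is withdrawn. Recipients were B6.SJL (CD45.1) mice, labelled as 8 to 12 weeks old, given 2 irradiation doses of 4.25 Gy 3 h apart, and all received TET for the first 2 weeks after transplant. BCR::ABL1- libraries (CTRL, n = 6) came from mice kept on TET and BCR::ABL1+ libraries (CML 2wk, n = 6) from mice without TET for 2 weeks. All CTRL libraries were labelled male and all CML 2wk libraries female, so that sex as labelled and BCR::ABL1 cannot be told apart. Library numbers also fell into 3 series, and only the 2 replicate 6 libraries shared a series across groups. Outside that pair, series and BCR::ABL1 cannot be told apart either. As donor cells were pooled, p-values measure the spread between these libraries and not between donors.

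Ribosome production starts in the nucleolus, where Pol I copies the ribosomal RNA (rRNA) genes into one long precursor. SnoRNPs modify and help to cleave this precursor while assembly factors fold it with ribosomal proteins into the small and large subunits, which mature further before and after export to the cytoplasm. In haemopoietic stem cells protein synthesis is kept low compared with that of their progeny, and Myc is a well-known activator of many of these genes.

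Between 22804754 and 41832868 reads were counted on genes in the CTRL libraries (median 26999600) and between 16150817 and 25070105 in the CML 2wk libraries (median 19829845.5). The 47 genes held 0.718% to 0.8286% of all counts in CTRL and 0.9535% to 1.1277% in CML 2wk, without overlap. Reads on mitochondrial genes made up 0.816% to 1.288% of counts in CTRL and 2.258% to 2.973% in CML 2wk. Of 12 markers of LSK and multipotent cells, 10 fell and 1 rose in CML 2wk, and their summed level in CPM, read counts scaled to library size, was 3089 to 3510 CPM in CTRL and 1921 to 2419 CPM in CML 2wk. The sorting markers were present in both groups, with mean levels of 748.2 and 411 CPM for Kit and 34.39 and 44.67 CPM for Ly6a. Summed mast cell and basophil markers (9 genes, 6 rose and 1 fell) were 316.6 to 428.8 CPM in CTRL and 494.7 to 2631 CPM in CML 2wk, and neutrophil markers (11 genes, 4 rose and 4 fell) were 2346 to 4731 and 3118 to 8529 CPM. Stromal and endothelial markers (12 genes, 4 rose and 0 fell) were 227.9 to 281.9 CPM in CTRL and 179.9 to 3068 CPM in CML 2wk, with the 2 highest sums in replicates 2 and 4. Summed erythroid markers (12 genes, 1 rose and 10 fell) were 594.1 to 761.8 CPM in CTRL and 408.7 to 784.6 CPM in CML 2wk, and megakaryocyte and platelet markers (8 genes, 6 tested and all 6 fell) were 278.6 to 325.7 and 90.92 to 251.3 CPM. Monocyte and macrophage markers (9 tested, 2 rose and 0 fell) were 259.6 to 485.2 and 412.2 to 623.2 CPM, B cell markers (10 tested, 0 rose and 4 fell) 38.17 to 155.2 and 28.12 to 113.9 CPM, and T and NK cell markers (9 tested, 2 rose and 3 fell) 75.72 to 99.83 and 86.19 to 192.6 CPM. Of all these markers, Gp6, a platelet receptor, was the 1 at 0 in every library of a group, CML 2wk. Its mean in CTRL was 0.01288 CPM, so it was at the floor in both groups, and it was not tested. Markers counted as having risen or fallen passed the test given below, which called 30.6% of all genes tested higher and 29.0% lower. Marker counts near those shares, such as those of neutrophil and of T and NK cell markers, do not set a cell type apart. The part of cell composition and mitochondrial reads in the results below was not tested, and in bulk samples fewer cells of a type and less RNA per cell cannot be told apart.

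In CML 2wk, 29 of the 47 genes were higher and 5 were lower (edgeR quasi-likelihood test, adjusted p under 0.05), while 13 did not pass the threshold. Over the 18438 genes tested, 30.6% were called higher and 29.0% lower. All 47 genes passed the filter on low counts. Their median log2 fold change was 0.42 (range -0.55 to 1.74), beside 0.07 over all genes tested. The values of the 6 CML 2wk libraries lay wholly above those of the 6 CTRL libraries for 24 of the 47 genes and wholly below for 3, compared with 17.0% and 20.6% of all genes tested. The set was therefore not uniform, and several complexes held members that rose beside members that did not pass the test or fell. The largest increases were of Pno1, Mrto4, Npm1, Nhp2, Rsl1d1 and Nop16, and the 5 genes that fell were Gar1, Ubtf, Polr1a, Ncl and Nolc1.

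**Figure D1:**
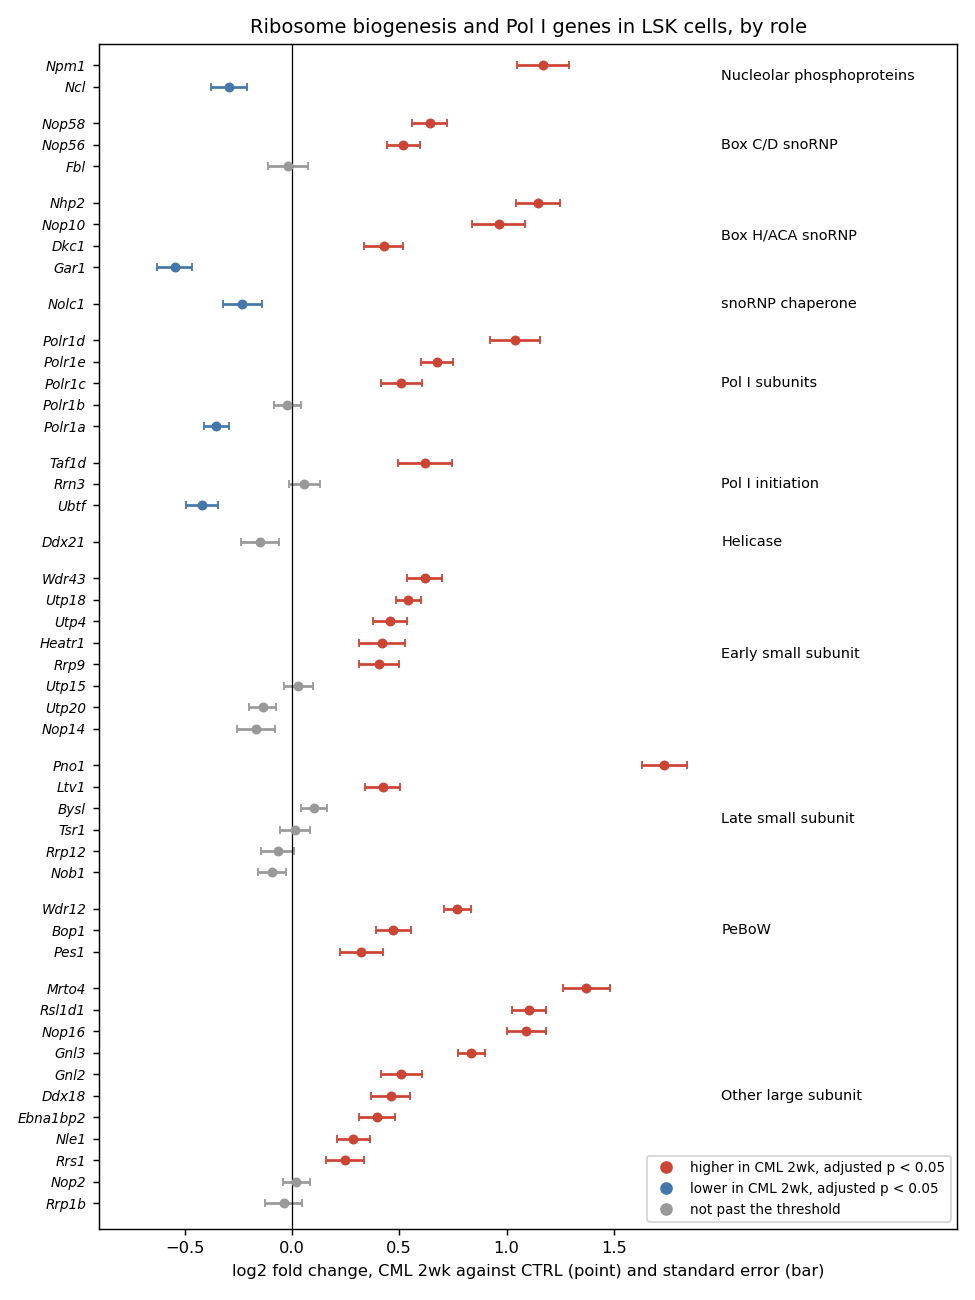
Log2 fold change of the 47 genes, CML 2wk (n = 6) against CTRL (n = 6), grouped by role. Points are edgeR estimates and bars are standard errors; red genes were higher and blue genes lower at an adjusted p under 0.05. Pno1 lies farthest to the right (1.74) and Gar1 farthest to the left (-0.55).

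The nucleolar phosphoproteins nucleophosmin (Npm1, a histone and ribosome chaperone) and nucleolin (Ncl, which binds nascent rRNA) moved in opposite directions. Npm1 was at 919.4 to 1235 CPM in CTRL (median 1156) and at 1952 to 3326 CPM in CML 2wk (median 2503). It rose 2.25-fold (log2 fold change 1.17 ± 0.12 (SE), adjusted p = 1.51e-06), and the highest CML 2wk value, in replicate 6, was above the other 5. Ncl was at 1429 to 1836 CPM in CTRL (median 1721) and at 1206 to 1570 CPM in CML 2wk (median 1344). The groups overlapped for Ncl, which fell by 0.29 ± 0.08 on the log2 scale (adjusted p = 0.00667). Per kb of coding sequence, Npm1 was the most abundant of the 47 genes in both groups (1280 CPM per kb in CTRL and 2880 in CML 2wk), and Ncl was the second in CTRL (783) and the fourth in CML 2wk (638). Reads assigned to 7 near-identical copies of Npm1 amounted to 0.435% of its own reads.

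The box C/D snoRNPs methylate the ribose of rRNA, with fibrillarin (Fbl) as the methyltransferase and Nop56 and Nop58 as the scaffold. Nop56 was at 196.5 to 239.1 CPM in CTRL (median 222.4) and at 269.8 to 359.3 CPM in CML 2wk (median 325.8), a rise of 1.43-fold (log2 fold change 0.52 ± 0.08, adjusted p = 4.71e-05). Nop58 was at 249.8 to 304.1 CPM (median 283) and at 373.2 to 493 CPM (median 426.7), a rise of 1.56-fold (0.64 ± 0.08, adjusted p = 1e-05). The groups did not overlap for either scaffold protein. Fbl was at 108.8 to 128.5 CPM in CTRL (median 118.7) and at 88.59 to 144.4 CPM in CML 2wk (median 115.3), so that its CML 2wk values spread on both sides of CTRL. Its log2 fold change was -0.02 ± 0.09 (adjusted p = 0.888).

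The box H/ACA snoRNPs convert uridine to pseudouridine, with dyskerin (Dkc1) as the catalytic subunit, and Nhp2 and Nop10 had larger fold changes than Dkc1 itself. Nhp2 was at 52.64 to 64.77 CPM in CTRL (median 57.43) and at 107.1 to 163.4 CPM in CML 2wk (median 120.3), a rise of 2.21-fold (log2 fold change 1.14 ± 0.10, adjusted p = 4.25e-07). Nop10, the smallest member with a coding length of 192 bases, was at 55.35 to 70.83 CPM (median 66.06) and at 93.2 to 165.4 CPM (median 119.6), and rose 1.95-fold (0.96 ± 0.12, adjusted p = 1.17e-05). Dkc1 was at 153.6 to 202.2 CPM (median 190.1) and at 211.7 to 297.8 CPM (median 237), and rose 1.35-fold (0.43 ± 0.09, adjusted p = 0.000968). Gar1, the fourth core protein, which helps rRNA to be bound and released, went the other way. It was at 40.26 to 53.14 CPM in CTRL (median 45.27) and at 27.38 to 36.39 CPM in CML 2wk (median 30.94), and every CML 2wk value lay below every CTRL value. Gar1 fell by 0.55 ± 0.08 on the log2 scale (adjusted p = 4.1e-05), the largest decrease of the 47 genes. Nolc1, a chaperone of snoRNPs in the nucleolus and Cajal bodies, was at 153.6 to 193.9 CPM in CTRL (median 186.9) and at 132.9 to 180.6 CPM in CML 2wk (median 143.8), and fell by 0.23 ± 0.09 on the log2 scale with overlapping groups (adjusted p = 0.0374). That call was lost in 8 of the 12 fits that left out 1 library, with adjusted p from 0.0104 to 0.0757.

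Nhp2 and Gar1 belong to the same complex and moved in opposite directions, and the promoters of both hold the letters CCGGAAG (the core of an Ets site, searched on both strands) in the 100 bases before the start of transcription. They are shown to let the 2 sites be compared, 5' to 3' on the strand of the gene, with the site in capitals (RefSeq, GRCm38.p6; Nhp2 at chr11:51619673-51619772, plus strand; Gar1 at chr3:129831397-129831496, minus strand).
Nhp2: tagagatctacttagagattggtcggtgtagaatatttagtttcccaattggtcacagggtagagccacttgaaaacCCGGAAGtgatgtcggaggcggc
Gar1: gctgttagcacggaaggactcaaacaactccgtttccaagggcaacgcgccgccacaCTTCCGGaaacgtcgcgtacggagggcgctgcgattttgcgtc
The first letter of the site lies 23 bases before the start in Nhp2 and 43 bases before it in Gar1, where it is on the opposite strand.

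Of the 5 Pol I subunits in the set, Polr1c, Polr1d and Polr1e rose, Polr1a fell and Polr1b did not pass the threshold. Polr1d, a subunit shared with Pol III, was at 40.88 to 50.3 CPM in CTRL (median 44.93) and at 69.98 to 117.4 CPM in CML 2wk (median 91.91), and rose 2.06-fold (log2 fold change 1.04 ± 0.12, adjusted p = 3.15e-06). Polr1e and Polr1c, the second also shared with Pol III, rose by 0.68 ± 0.07 and 0.51 ± 0.09 on the log2 scale, and the groups did not overlap for either. Polr1a, the largest subunit and part of the active site, was at 132.7 to 159.5 CPM in CTRL (median 147.3) and at 108.8 to 121.6 CPM in CML 2wk (median 113.7). All CML 2wk values of Polr1a were below those of CTRL, and it fell by 0.35 ± 0.06 on the log2 scale (adjusted p = 0.000116). Polr1b, the second largest subunit, was at 94.95 to 111.1 CPM (median 105.1) and at 93.24 to 115.5 CPM (median 102.2). Its groups overlapped fully and its log2 fold change was -0.02 ± 0.06 (adjusted p = 0.786).

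The 3 Pol I initiation factors also differed from one another. Ubtf, which binds rRNA genes and keeps them open, was at 251.8 to 283.4 CPM in CTRL (median 278.8) and at 168.2 to 230.6 CPM in CML 2wk (median 203.8). It fell by 0.42 ± 0.08 on the log2 scale without overlap of the groups (adjusted p = 0.000252). Rrn3 (TIF-IA), which makes Pol I competent for initiation, was at 90.24 to 103.2 CPM in CTRL (median 97.2) and at 92.07 to 122.3 CPM in CML 2wk (median 97.1), with a log2 fold change of 0.06 ± 0.07 (adjusted p = 0.495). Its medians lay close together, and 1 library, replicate 1, stood above the rest. Taf1d, a subunit of the selectivity factor that recruits Pol I, was at 410.1 to 453.9 CPM in CTRL (median 427.6) and at 422.9 to 858.2 CPM in CML 2wk (median 670.5). It rose 1.54-fold (0.62 ± 0.13, adjusted p = 0.000693), and the lowest CML 2wk value, in replicate 2, was within the CTRL range. Taf1d hosts 8 snoRNAs that share exon sequence with it, so reads of the host and the hosted RNAs are uncertain. Ddx21, a helicase that links Pol I transcription with rRNA processing, was at 312.7 to 393.6 CPM in CTRL (median 384.5) and at 276.1 to 386.6 CPM in CML 2wk (median 327.2), with a log2 fold change of -0.15 ± 0.09 (adjusted p = 0.158).

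**Figure D2:**
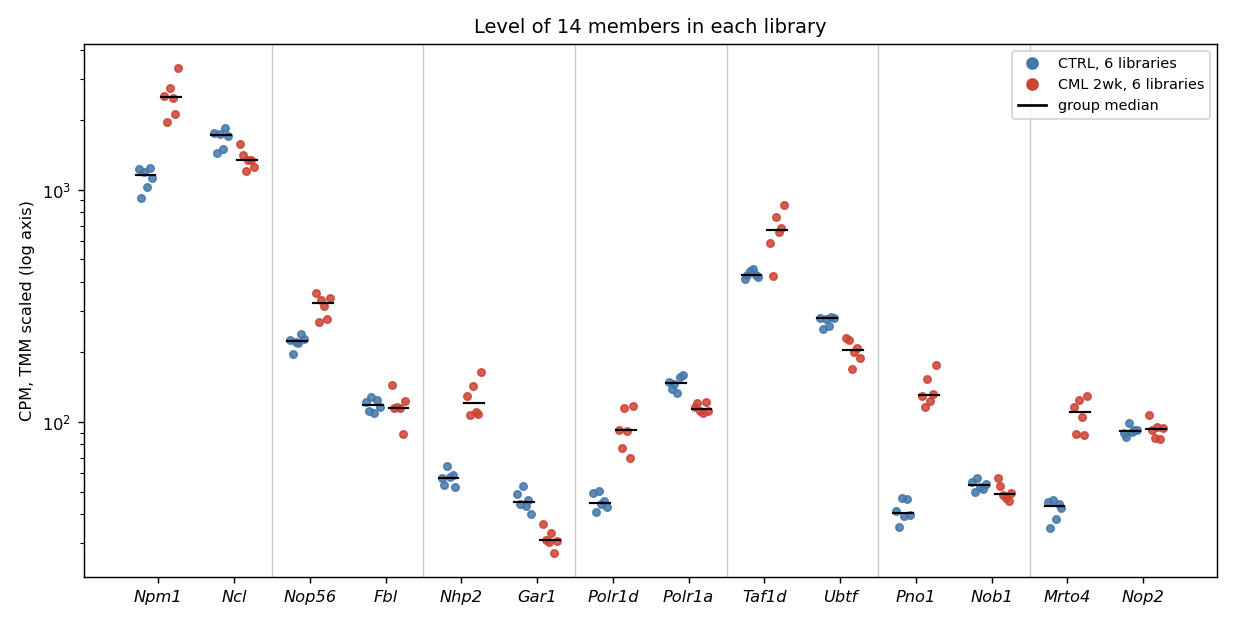
Level of 14 of the genes in each of the 12 libraries, as CPM scaled with TMM factors on a log axis. Points are libraries and black lines are group medians; Npm1, Nop56, Nhp2, Polr1d, Pno1 and Mrto4 were higher in every CML 2wk library than in any CTRL library, and Gar1, Polr1a and Ubtf were lower.

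Of the 8 members of the early small subunit processome, the particle that assembles on the nascent precursor, 5 rose and 0 fell (median log2 fold change 0.41). The shares over all genes tested were 30.6% higher and 29.0% lower. Heatr1, a component that also promotes Pol I transcription, was at 168.4 to 206.2 CPM in CTRL (median 191.3) and at 209.1 to 319.7 CPM in CML 2wk (median 243.3), and rose 1.34-fold (log2 fold change 0.42 ± 0.11, adjusted p = 0.00331) with no overlap. Wdr43, Utp18, Utp4 and Rrp9 rose by 0.40 to 0.62 on the log2 scale, each without overlap. Utp20, a large scaffold of the particle, was at 149.2 to 172.4 CPM in CTRL (median 154.5) and at 129.2 to 162.3 CPM in CML 2wk (median 144.7), with a log2 fold change of -0.14 ± 0.06 (adjusted p = 0.0756). Utp15 and Nop14 did not pass the threshold either (0.03 and -0.17).

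Utp18, which rose, and Rrn3, which did not pass the test, both carry CACGTG, the E-box that Myc and Max bind, within 100 bases before their start. They are shown as a pair to set a gene that was called beside one that was not, with the E-box in capitals (RefSeq, GRCm38.p6; Utp18 at chr11:93885767-93885866, minus strand; Rrn3 at chr16:13780599-13780698, plus strand).
Utp18: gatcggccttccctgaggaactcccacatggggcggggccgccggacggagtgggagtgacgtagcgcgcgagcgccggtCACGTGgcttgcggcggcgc
Rrn3: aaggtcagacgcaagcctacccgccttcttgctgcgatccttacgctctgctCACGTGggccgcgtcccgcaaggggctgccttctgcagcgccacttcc
The E-box begins 20 bases before the start in Utp18 and 48 bases before it in Rrn3. With the trend with coding length removed, as given below, Rrn3 passed the threshold too (log2 fold change 0.32, adjusted p = 0.000967). It did not with GC content removed as well (0.12, adjusted p = 0.0676).

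In late maturation of the small subunit, 2 of 6 genes rose and 0 fell. Over all genes tested 30.6% were called higher and 29.0% lower, so the count of higher genes was near the background without a length correction. With the trend with coding length removed, as given below, 5 of the 6 were higher and 0 lower. In that fit 34.6% of coding genes were called higher and 28.3% lower. Pno1, which binds the end of the small subunit rRNA precursor, was at 35.48 to 47.2 CPM in CTRL (median 40.49) and at 116.2 to 175.1 CPM in CML 2wk (median 130.8). The lowest CML 2wk library was above the highest CTRL library, and the rise of 3.33-fold was the largest of the 47 genes (log2 fold change 1.74 ± 0.10, adjusted p = 2.12e-08). Nob1, the nuclease that Pno1 holds in check and that makes the final cut of that rRNA, was at 50.07 to 57.63 CPM in CTRL (median 53.48) and at 45.61 to 57.41 CPM in CML 2wk (median 49.11). The values of Nob1 overlapped, with a log2 fold change of -0.09 ± 0.06 (adjusted p = 0.226). Ltv1, a factor of the maturing small subunit, rose by 0.42 ± 0.08 on the log2 scale. Bysl, Tsr1 and Rrp12 were between -0.07 and 0.10 and did not pass the threshold.

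All 3 members of the PeBoW complex (Pes1, Bop1 and Wdr12), needed for processing of the precursor of the large subunit rRNAs, rose, beside 30.6% of all genes tested. Bop1 was at 64.7 to 75.66 CPM in CTRL (median 69.39) and at 86.74 to 121.6 CPM in CML 2wk (median 90.78), and rose 1.39-fold (log2 fold change 0.47 ± 0.08, adjusted p = 0.000176). Pes1 was at 87.78 to 113.2 CPM (median 106.6) and at 111 to 158.9 CPM (median 124.9), with 1.25-fold higher values that overlapped those of CTRL (0.32 ± 0.10, adjusted p = 0.0124). Wdr12 rose by 0.77 ± 0.06 on the log2 scale without overlap. The call of Pes1 was lost when no filter on low counts was used (0.25, adjusted p = 0.0654).

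Of the other 11 large subunit factors, 9 rose and 0 fell (median log2 fold change 0.46), beside 30.6% and 29.0% of all genes tested. Mrto4, a placeholder for the P0 stalk protein, was at 34.81 to 46.34 CPM in CTRL (median 43.47) and at 87.65 to 128.9 CPM in CML 2wk (median 110.8), and rose 2.59-fold (log2 fold change 1.37 ± 0.11, adjusted p = 1.4e-07). Rsl1d1 was at 164.6 to 212.1 CPM (median 200.2) and at 379.5 to 486 CPM (median 409.5), and rose 2.15-fold (1.10 ± 0.08, adjusted p = 7.4e-08). Nop16 was at 36.75 to 46.07 CPM (median 43.4) and at 69.76 to 99.75 CPM (median 94.62), and rose 2.13-fold (1.09 ± 0.09, adjusted p = 2.35e-07). These 3 genes had no overlap between groups, as did Gnl3 (nucleostemin, a nucleolar GTPase abundant in stem cells), its relative Gnl2, and Ddx18. The groups overlapped for the other 3 that rose, Ebna1bp2, Nle1 and Rrs1. Rrs1, which helps to bring a ribonucleoprotein with its own small rRNA into the large subunit, was at 53.44 to 68.93 CPM in CTRL (median 59.69) and at 62.18 to 84.79 CPM in CML 2wk (median 69.89), and rose 1.19-fold (0.25 ± 0.09, adjusted p = 0.0264). Its call was lost in 7 of the 12 fits that left out 1 library (adjusted p from 0.0151 to 0.0686), with DESeq2 (adjusted p = 0.0551), with no filter on low counts (0.157) and with a replicate block (0.0635). Nop2, a methyltransferase of large subunit rRNA, was at 86.55 to 98.73 CPM in CTRL (median 91.3) and at 84.16 to 107 CPM in CML 2wk (median 93.15), a log2 fold change of 0.02 ± 0.06 (adjusted p = 0.815). Rrp1b did not pass the threshold either (-0.04 ± 0.08).

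Ratios of read counts between genes of one complex or step do not depend on how libraries are scaled, and 15 such ratios were taken within each library. The pairs were chosen after the values were seen, so they are given as a description, and as the genes differ in length they are not ratios of molecules. The ratios also carry the trend with coding length given below, and in most pairs the first gene is the shorter. With that trend removed, the log2 fold changes of Polr1d and Polr1a were 0.81 and 0.11, in place of 1.04 and -0.35. Those of Npm1 and Ncl were 1.16 and -0.01, in place of 1.17 and -0.29. Nop56 and Fbl, with the longer gene first, moved apart, to 0.745 and 0.03 from 0.52 and -0.02. The Pno1 to Nob1 ratio was 0.709 to 0.9 in CTRL and 2.19 to 3.53 in CML 2wk. The Nhp2 to Gar1 ratio was 1.17 to 1.32 in CTRL and 3.34 to 5.31 in CML 2wk. Both ratios were more than 2-fold apart between the nearest libraries of the 2 groups. The Npm1 to Ncl ratio was 0.644 to 0.701 in CTRL and 1.39 to 2.66 in CML 2wk, and the Polr1d to Polr1a ratio was 0.27 to 0.345 and 0.576 to 1.05. The Nop56 to Fbl ratio moved less, from 1.72 to 2.02 in CTRL to 2.36 to 3.14 in CML 2wk. Within PeBoW the groups came closest, with a Wdr12 to Bop1 ratio of 1.65 to 1.8 in CTRL and 1.76 to 2.41 in CML 2wk and a Wdr12 to Pes1 ratio of 1.08 to 1.27 and 1.26 to 1.88, and both overlapped.

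**Figure D3:**
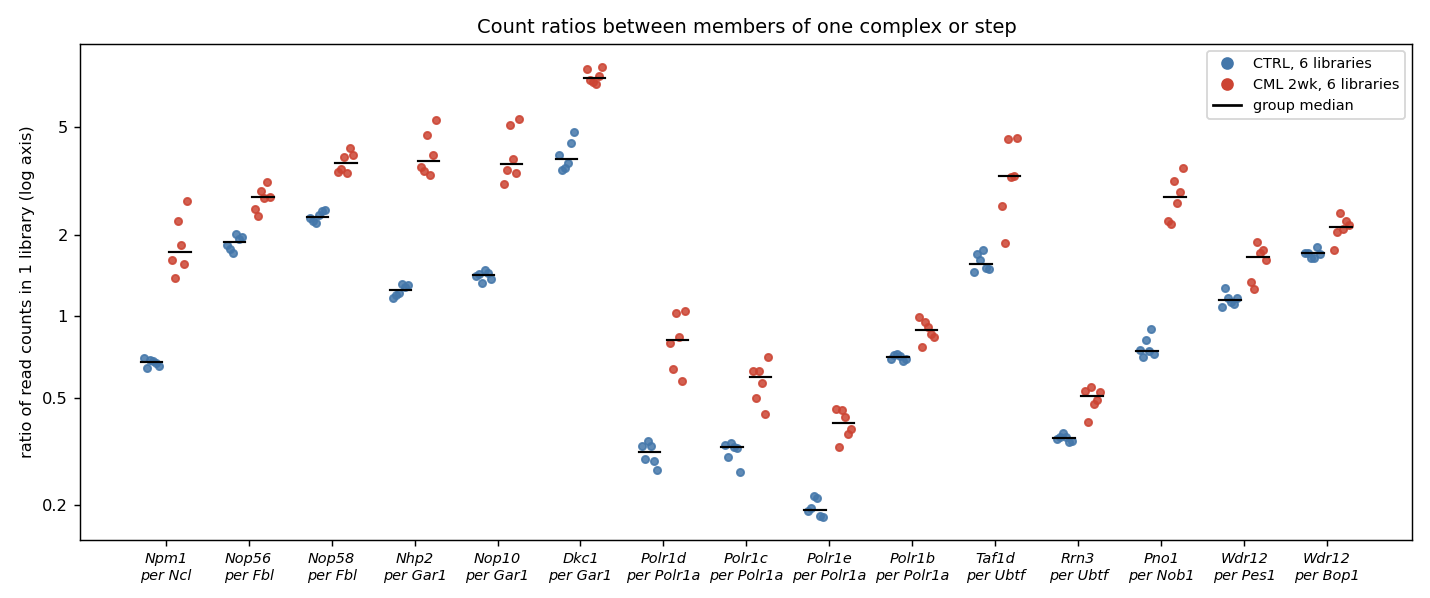
Ratio of read counts between 2 genes of the same complex or step in each library, on a log axis and with no correction for coding length. Points are libraries and black lines are group medians; in 13 of the 15 ratios every CML 2wk library lies above every CTRL library, and in the other 2, Wdr12 to Pes1 and Wdr12 to Bop1, the groups overlap. The ratios without overlap run from a Polr1b to Polr1a ratio of 0.683 to 0.729 in CTRL and 0.772 to 0.997 in CML 2wk up to a Pno1 to Nob1 median that is 3.69 times higher in CML 2wk.

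Genes with short coding sequences had higher log2 fold changes than genes with long ones, both in the set and among all genes. Of the 24 members with a coding length of at most 1608 bases, 19 rose and 1 fell, with a median log2 fold change of 0.56. Of the 23 longer ones, 10 rose and 4 fell, with a median of 0.02. Across the 47 genes the log2 fold change and the log2 coding length had a Pearson r of -0.58 and a Spearman rho of -0.59, and across 13114 coding genes tested r was -0.23 and rho -0.31; these are descriptions across genes measured in the same libraries. The median of other coding genes went from 0.40 below 500 bases to -0.41 above 3000 bases. The members' median was above that of other genes in all 6 length ranges, from 1.04 beside 0.40 in the shortest (3 members) to -0.07 beside -0.41 in the longest (5 members). Gar1 (693 bases) was the shorter member that fell, and Heatr1 (6429 bases) was the member over 3000 bases that rose.

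When the trend with coding length was removed library by library, an alternative chosen after seeing the data, 39 of the 47 genes were higher and 1 was lower, where 34.6% of the 13114 coding genes tested were called higher and 28.3% lower. The median log2 fold change of the set was then 0.58, beside 0.05 over all genes of that fit. All 29 genes that rose without this step also rose with it. Gar1 remained lower (-0.64, adjusted p = 5.22e-06), whereas Ncl (-0.01, adjusted p = 0.91) and Ubtf (-0.11, adjusted p = 0.116) no longer passed the threshold, and Polr1a (0.11, adjusted p = 0.142) and Nolc1 (0.05, adjusted p = 0.594) changed sign without passing it. Polr1b (0.39, adjusted p = 0.000394), Rrp12 (0.36, adjusted p = 0.000274) and Utp20 (0.33, adjusted p = 0.000964) were higher on this scale. So were Nop2 (0.34), Tsr1 (0.34), Rrn3 (0.32), Rrp1b (0.26), Bysl (0.25), Utp15 (0.225) and Ddx21 (0.19), which had not passed the threshold without this step. With GC content removed as well, 36 genes were higher (background 32.7%) and 2 were lower (26.8%), Gar1 and Ncl (-0.22, adjusted p = 0.00896). The direction of Gar1 and of the 29 higher genes did not depend on these steps, while the calls of Polr1a, Ubtf and Nolc1 did, and that of Ncl did when length alone was removed. The lack of a call also depended on them for Polr1b, Rrp12, Utp20, Nop2, Tsr1, Bysl and Rrp1b. For Rrn3, Utp15 and Ddx21 it did when length alone was removed.

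**Figure D4:**
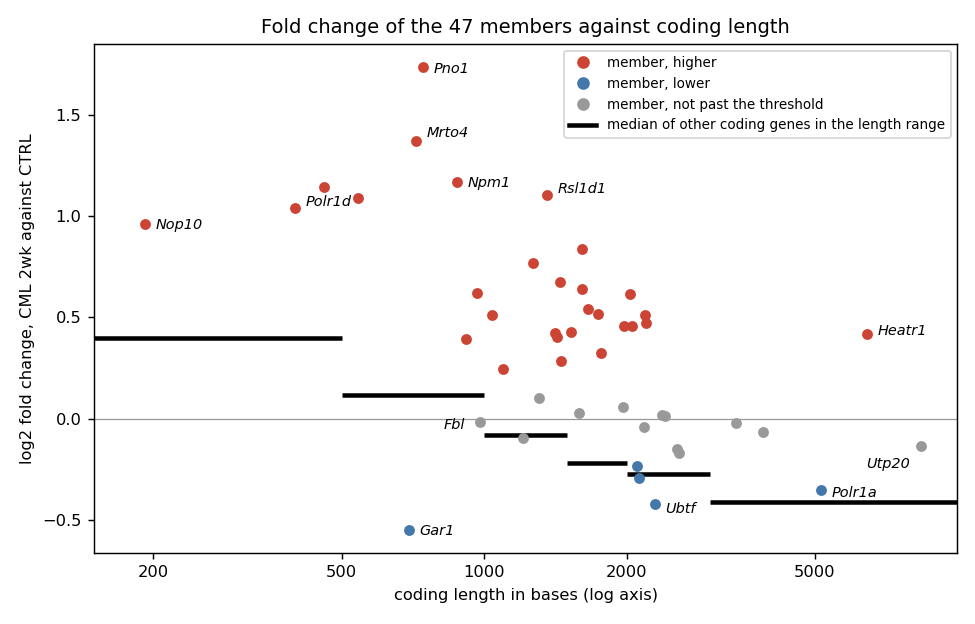
Log2 fold change of the 47 genes against coding length, with no correction of the fold change for length; the length axis is logarithmic. Black bars are the medians of all other coding genes tested in 6 length ranges, which go from 0.40 in the shortest to -0.41 in the longest, and most members lie above the bar of their range.

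Replicates of CML 2wk varied more than those of CTRL for 40 of the 47 genes, with a median SD of log2 CPM of 0.174 and 0.106. Over all genes tested the medians were 0.302 and 0.144, a background that includes many genes with fewer reads. Taf1d had the widest gap (SD 0.353 in CML 2wk and 0.0543 in CTRL). CML 2wk replicate 1 held the highest value of its group for 28 of the 47 genes, and CTRL replicate 2 the lowest of its group for 33. These counts, and that of genes with a larger SD in CML 2wk, are for the set alone and do not show a trait particular to it. Among CML 2wk libraries the summed level of the set ranged from 9607 to 11770 CPM, and in CTRL from 6946 to 8366 CPM.

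Other genes of the pathway, from lists of 140 genes outside the set, moved in the same mixed manner. Of 139 tested, 82 were higher and 16 lower (median log2 fold change 0.31), beside 30.6% and 29.0% of all genes tested. Among 13 further Pol I components 8 rose and 1 fell. The shared subunits Polr2k and Polr2h rose most (1.05 ± 0.18 and 0.95 ± 0.12), Tbp rose by 0.45 ± 0.06, and the termination factor Ttf1 fell by 0.52 ± 0.08 on the log2 scale. The Pol I subunits Polr1g (0.24 ± 0.10, adjusted p = 0.0544) and Polr1h (0.03 ± 0.14, adjusted p = 0.878) did not pass the threshold. Among 47 further small subunit factors 27 rose and 5 fell, from Mphosph10 (1.26 ± 0.10) and Dcaf13 (1.10 ± 0.08), both of the early processome, to Nol6 (-0.74 ± 0.08) and the GTPase Bms1 (-0.48 ± 0.07). Among 49 further large subunit factors 24 rose and 8 fell, from Rpf2 (1.46 ± 0.09), a late nucleolar factor, and Nip7 (1.25 ± 0.11) to Noc2l (-0.60 ± 0.06) and Pelp1 (-0.51 ± 0.06).

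Among 9 snoRNP assembly and nucleolar scaffold genes 6 rose and 1 fell, beside 30.6% and 29.0% of all genes tested. Znhit3 (1.47 ± 0.12) and Nufip1 (0.88 ± 0.06), both box C/D assembly factors, rose most, Znhit6 rose by 0.35 ± 0.07, and Tcof1 (treacle, which works with Ubtf at rRNA genes) fell by 0.57 ± 0.06 on the log2 scale. Of 21 tested RNA exosome and RNase MRP genes 17 rose and 1 fell, with Rpp40 (1.13 ± 0.09) and C1d (0.97 ± 0.08) at one end and Dis3 (0.15 ± 0.06) and the nuclease Exosc10 (-0.43 ± 0.06) at the other. Cytosolic ribosomal protein genes, the cargo of this pathway, were higher for 71 of 78 and lower for 0, with a median log2 fold change of 0.82. With the length trend removed, 109 of the pathway genes were higher and 4 lower, where 34.6% and 28.3% of coding genes tested were called.

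Myc was at a mean of 320.7 ± 22.4 CPM (SD, n = 6) in CTRL and 301.3 ± 36.2 CPM (SD, n = 6) in CML 2wk, with a log2 fold change of -0.09 ± 0.08 (adjusted p = 0.36). Of 9 genes of the Myc and Max network 0 were higher and 7 were lower, with a median log2 fold change of -0.82. The list mixes Myc, Mycn and Max with Mnt, Mga, Mxd1, Mxd3, Mxd4 and Mxi1, which compete with Myc for Max. Its count and median therefore do not describe the activity of Myc. Mnt, Mga, Mxd1 and Mxd3 were lower, with log2 fold changes of -0.82, -0.31, -0.84 and -0.95, and Mxi1 did not pass the threshold (-0.21). Mycn fell by 1.62 ± 0.21 and Mxd4, a repressor that competes with Myc for Max, fell by 1.12 ± 0.09 on the log2 scale, each without overlap. Of 20 S phase genes 5 were higher and 10 were lower, and of 16 G2/M genes 3 were higher and 9 were lower. Over all genes tested 30.6% were called higher and 29.0% lower. The part of the Myc, S phase and G2/M genes in the values of the ribosome biogenesis genes was not tested.

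Promoter sequences (250 bases before to 50 bases after the start, RefSeq, GRCm38.p6) were matched for 41 of the 47 genes, as 49 promoters. Npm1, Fbl, Rrp12, Bop1, Rrs1 and Gnl2 had no promoter sequence to search. The E-box CACGTG was present for 11 of the 41 genes, in 22.4% of their promoters, beside 7.15% of all 32851 promoters in the table and 9.49% of promoters of genes tested; the share was 15.1% for the other pathway genes and 11.9% for cytosolic ribosomal protein genes. Of these 11 genes, 7 rose and 0 fell, among them Pno1, Wdr43, Utp18 and Utp4, and the other 4 were Rrn3, Utp20, Tsr1 and Nop2. Of the 30 genes without the E-box, 18 rose and 5 fell, and the median log2 fold change was 0.32 with it and 0.42 without it. CCGGAAG was present for 14 genes, in 28.6% of promoters beside 8.86% of all promoters and 16.3% of those of genes tested, with 9 of the 14 genes higher and 2 lower. Its share was higher among the other pathway genes (42.9%) and the cytosolic ribosomal protein genes (37.3%) than among the members. The GC box GGGCGG was in 67.3% of the members' promoters, 35.7% of all promoters and 58.5% of those of genes tested. The palindromic site of Nrf1 was present for Pno1 alone. That is 2.04% of the members' promoters, beside 0.971% of all and 1.9% of those of genes tested. AAGATGGC, a Yy1 site, was present for 0 of the 41 genes, beside 2.75% of all promoters and 4.13% of those of genes tested. Each motif was searched for on both strands on its own, and overlaps between motifs were not removed. A cytosine at the start followed by 4 pyrimidines, the hallmark of ribosomal protein mRNAs, was annotated for 0 of the 41 genes. It was annotated for 14 of 57 cytosolic ribosomal protein genes and for 2.51% of all promoters. As so few ribosomal protein genes scored, annotated starts can miss this feature, and its absence from the set cannot be inferred.

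In the reference annotation 8 of the 47 genes carry 29 snoRNAs within their bounds, and these hosts were Ncl, Nop56, Nop58, Dkc1, Taf1d, Wdr43, Tsr1 and Gnl3. Of the hosts, 6 rose and 1, Ncl, fell (median log2 fold change 0.57), and of the 39 other genes 23 rose and 4 fell (median 0.40). The shares over all genes tested were 30.6% higher and 29.0% lower. Exons of 5 members overlapped those of another gene on the same strand and exons of 19 members overlapped an antisense gene, and as the strand setting of the counting is not given in the sources used here, reads of such pairs cannot be told apart. Near-identical copies were found for 11 members, and their reads exceeded 1% of the member's own for Ddx18 alone (1.04%).

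The library numbers fell into 3 series, of which 1 held a library of each group (replicate 6) and the others libraries of 1 group only. Outside the replicate 6 pair, the series and the group cannot be told apart. In that pair, all 29 genes called higher were higher in CML 2wk and all 5 called lower were lower. The calls were made with these 2 libraries included, and 24 of the higher and 3 of the lower genes had no overlap between groups. This agreement was therefore largely set by the choice of genes and is no check on the series. With the series as a term in the fit, so that the group difference rested on the 2 replicate 6 libraries, 18 genes were higher and 3 were lower (background 11.8% and 13.4%), with a median log2 fold change of 0.46 beside 0.005 over all genes tested. As that fit compares the same 2 libraries, the direction and size it gives are no check on the series either. Of the 34 called genes 14 no longer passed the threshold. All 14 kept their direction, with a log2 fold change at least as far from 0 as without the term for 8 of them. These included Ncl (-0.45 ± 0.21, adjusted p = 0.138), Nolc1 (-0.52 ± 0.22, adjusted p = 0.102), Bop1 (0.50 ± 0.21, adjusted p = 0.103) and Pes1 (0.38 ± 0.26, adjusted p = 0.339), while Gar1 was closer to 0 (-0.39 ± 0.19, adjusted p = 0.178).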

How the data were processed

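LSK cells were sorted from recipient BM, and RNA was sequenced as paired ends on a HiSeq4000 after Kapa RNA HyperPrep preparation. The authors deposited raw read counts per Ensembl gene for each of the 12 libraries, without normalization. For this step the methods name FastQC, Trim Galore!, HISAT2, featureCounts and hg38, while the submitters' processing notes list FastQC 0.11.9, fastp 0.23.2, STAR 2.7.10a, featureCounts 2.0.1, DESeq2 1.36.0 and mm39; strand setting, multimapping and annotation are not given in the sources used here, and identifiers are of mouse genes. Human BCR::ABL1 was not counted. Of 56748 identifiers 52073 had a symbol in the reference table, and 0 entries named no gene. No libraries agreed within sampling noise (lowest chi-square per degree of freedom 4.072).

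Counts were tested with edgeR 4.0.16 (TMM factors, filterByExpr, quasi-likelihood test, Benjamini-Hochberg adjustment over 18438 genes) in R 4.3.3. Fold changes are log2 of CML 2wk over CTRL; SE is the log2 fold change divided by the root of F. CPM are TMM scaled, and SDs of log2 CPM used a prior count of 2. Coding lengths were those of the longest coding sequence in GENCODE M21 (GRCm38), used for lengths and overlaps only; a copy shares at least 90% identity over at least 50% of it. Length and GC trends were natural splines with 5 degrees of freedom per library. The edgeR fit and the removal of a coding-length trend were run on simulated counts, in which far fewer genes changed than here. GC removal and the other alternatives were not simulated. DESeq2 1.42.0, other factors and filters, a replicate block, a series term and left-out libraries were alternatives. Python 3.11.15 and matplotlib 3.10.9 were used for sequences and plots.

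The members and lists were chosen with earlier results of these data known. Genes named with full values were those with the 6 highest and 6 lowest log2 fold changes among called members and 17 core genes; role and pathway lists were otherwise given as counts, with the 2 largest and 2 smallest called changes of each pathway list. Other genes named, with the ratios, were chosen after their values were seen.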

Additional observations from a re-analysis of the deposited data

Results flagged for a closer look

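Among 94 sets of 6 values (47 genes in 2 groups), 2 held a library far from the other 5 by Dixon's criterion, where chance gives about 1 in 20. Rrn3 was at 122.3 CPM in CML 2wk replicate 1, beside 101.9 CPM in the next library, and its log2 fold change without that library was -0.01 in place of 0.06. Rrp1b was at 113.7 CPM in CTRL replicate 6, beside 102.7 CPM in the next library.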

How the results depend on the processing

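With upper-quartile factors, RLE factors, DESeq2, no filter on low counts, a filter of at least 1 CPM in 6 libraries and an adjusted p under 0.01, the counts of higher and lower genes and the median stayed within 1.5 times or 1 SD between replicates. The median of all genes tested was between 0.005 and 0.14 on the log2 scale under every alternative. Leaving out each library gave 28 to 29 higher and 4 to 6 lower genes. The replicate numbers did not pair the libraries (correlations of same-numbered deviations between -0.125 and 0.0679), and the fit with a replicate block gave 28 higher and 4 lower genes, losing Nolc1 and Rrs1. Leaving out 1 library at a time, Nolc1 was lost in 8 of 12 fits (without CTRL replicates 1, 3, 5 or 6 or CML 2wk replicates 3, 4, 5 or 6; adjusted p up to 0.0757) and Rrs1 in 7 of 12 (without CTRL replicates 1, 2, 4 or 5 or CML 2wk replicates 1, 2 or 6; adjusted p up to 0.0686), while Nop14 was called lower without CML 2wk replicate 2 (-0.26, adjusted p = 0.00562) and Utp20 without CML 2wk replicate 5 (-0.17, adjusted p = 0.0226). With the library-number series as a term, 18 genes were higher and 3 lower, where 11.8% and 13.4% of all genes tested were called, the median was 0.46, and 54 pathway genes were higher; the group difference of that fit rests on 2 libraries. With the coding-length trend removed, 1 gene was lower, the median was 0.58 and 4 pathway genes were lower; with GC removed as well, 2 genes were lower, the median was 0.56, 2 pathway genes were lower and 1 ribosomal protein gene was lower. Of 1081 values of single genes under an alternative, 973 kept direction and call, 41 no longer passed the threshold, 16 passed it anew and 51 changed sign. The changes of sign were of genes near 0 apart from those under the trend corrections. With upper-quartile factors Rrp12 was at 0.01, Rrp1b at 0.04, Polr1b at 0.05 and Fbl at 0.06. With DESeq2 Nop2 was at -0.004 and Tsr1 at -0.01. With no filter Rrn3 was at -0.01, Utp15 at -0.04, Nop2 at -0.05 and Tsr1 at -0.06. With the CPM filter Rrp1b was at 0.004, Polr1b at 0.02 and Fbl at 0.03. With the series term Utp15 was at -0.1, Tsr1 at -0.19 and Fbl at 0.1. Without replicate 6 of both groups Rrp12 was at 0.01, Polr1b at 0.03 and Rrp1b at 0.05, and without CML 2wk replicates 2 and 4, those with the highest stromal sums, Tsr1 was at -0.02 and Polr1b at 0.01. Leaving out single libraries gave Fbl -0.09 to 0.05, Rrn3 -0.01 to 0.08, Utp15 -0.02 to 0.05, Tsr1 -0.03 to 0.04 and Nop2 -0.03 to 0.04. With length removed Fbl and Nob1 were at 0.03, Nolc1 at 0.05, Polr1a at 0.11, Nop14 at 0.17, Ddx21 at 0.19, Rrp1b at 0.26, Utp20 at 0.33, Rrp12 at 0.36 and Polr1b at 0.39; with length and GC removed Nop14 was at 0.05, Polr1a and Ddx21 at 0.1, Nolc1 at 0.11, Nob1 at 0.13, Fbl at 0.17, Utp20 at 0.19, Rrp1b at 0.27, Polr1b at 0.36 and Rrp12 at 0.5. The cause of these changes was not tested beyond the construction of each alternative. All 47 genes passed the filter on low counts, and no fit at matched depth was run.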
